A study of Mus musculus with 12 samples.

Results

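Fgf21 encodes fibroblast growth factor 21, a hormone that hepatocytes secrete into the blood. It had 1 probe set among the 15780 named genes of the array, and its levels are described here in each of the 4 groups of 3 arrays. The groups were input RNA and RNA precipitated with an antibody against CNOT6L (IP), each from hepatocytes labelled wild type and from hepatocytes labelled Cnot6l knockout. All cells were primary hepatocytes isolated from male C57BL/6J mice aged 8 weeks, and per the series text each preparation was split into an input part and an IP part. The knockout cells, which should lack the antigen, were the study's negative control. The replicates are titled biological, with nothing more said on animals, and p-values measure the spread between these samples. The labels do not say how the knockout allele was made or whether it is confined to the liver.

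FGF21 acts on target cells through FGF receptors, chiefly FGFR1, together with the co-receptor beta-Klotho (gene Klb). In liver its gene is switched on by the nuclear receptor PPAR-alpha during fasting and by the transcription factor ATF4 when amino acids are short or protein folding is disturbed. CNOT6L is one of the enzymes by which CCR4-NOT removes poly(A) tails from mRNAs, the step that usually opens their decay. The array comparison asks which mRNAs were recovered with CNOT6L beyond the background of the precipitation.

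The gene lies on mouse chromosome 7 from position 45613890 to 45615490 (RefSeq annotation of GRCm38.p6) and is read from the minus strand. The 250 bases before its start, chr7:45615491-45615740 in GRCm38.p6 and written 5′ to 3′ on the strand of the gene, are shown because the genes of its 2 inducing pathways are compared with it further on. Capitals mark, in order, a match to the C/EBP-ATF response element that ATF4 can bind, a CACGTG E-box and a TATAAA box.

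Fgf21 promoter: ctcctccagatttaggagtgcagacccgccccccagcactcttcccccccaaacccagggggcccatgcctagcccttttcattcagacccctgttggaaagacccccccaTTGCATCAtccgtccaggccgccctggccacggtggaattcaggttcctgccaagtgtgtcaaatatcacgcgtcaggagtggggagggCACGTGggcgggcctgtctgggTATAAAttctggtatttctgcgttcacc

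The response element, searched on both strands as TGATGCAA, began 139 bases before the start, where it reads in the reverse direction. Its letters occur in 0.895% of 32851 RefSeq promoters of the same window, which runs from 250 bases before to 50 bases after the start. The E-box (7.15% of promoters) began 50 bases and the TATAAA letters (13.6%, either strand) 28 bases before the start. The cAMP response element TGACGTCA (1.79%) had 0 matches in this window. A response element of PPAR-alpha was not searched for, here or in the promoters of the lists below. None of the 3 matches overlapped another. Such matches describe letters only and do not show that a factor binds.

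On the log2 scale of the deposited values, Fgf21 read 7.49, 7.39 and 6.94 in the wild-type inputs numbered 1, 2 and 3, and 10.01, 10.43 and 9.75 in the wild-type IPs of the same numbers. In the arrays labelled knockout it read 7.60, 7.41 and 6.98 in the inputs and 6.48, 7.61 and 6.88 in the IPs. The 3 wild-type IPs were thus the 3 highest arrays, and the other 9 lay within 1.13 log2 units of each other. The gap between the lowest wild-type IP (9.75) and the highest other array (7.61, knockout IP number 2) was 2.13 log2 units. All 3 wild-type IPs were above the other 9 arrays in 228 of the 9496 genes tested (2.4%), and among these only Tec, a cytoplasmic tyrosine kinase gene, had a wider gap (2.61).

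**Figure D1:**
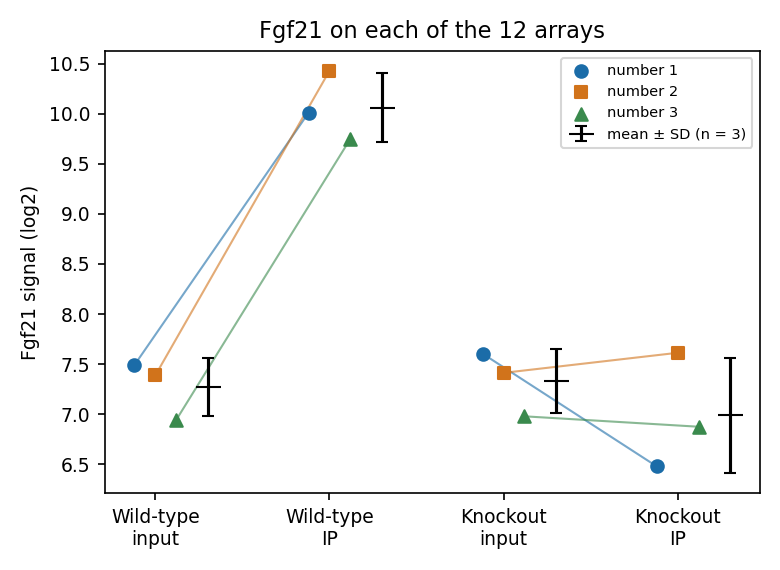
Signal of Fgf21 (log2, vertical axis) on the 12 arrays by group, with 1 symbol per replicate number, a line from each input to the IP of the same preparation, and the mean ± SD of each group beside the points. The 3 wild-type IPs lie between 9.75 and 10.43 and all other arrays between 6.48 and 7.61.

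Ordered by group mean, the Fgf21 signal was 10.06 ± 0.34 for wild-type IP, 7.33 ± 0.32 for knockout input, 7.28 ± 0.29 for wild-type input and 6.99 ± 0.58 for knockout IP (SD, n = 3 each). The step from the first to the second of these means was larger than any spread within a group, whereas the values of the last 3 groups overlapped. Within the inputs the spread over replicate numbers was wider than the difference between genotypes. The 3 wild-type inputs spanned 0.55 and the 3 knockout inputs 0.62 log2 units, with number 1 highest and number 3 lowest in each, while the 2 genotypes differed by 0.11, 0.02 and 0.04 at the same number. The knockout IPs were the most spread group, at 1.13 units, with number 2 highest as in the wild-type IPs.

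Cnot6l, the targeted gene, was checked before the comparisons. Among the inputs its single probe set read 9.02 ± 0.54 for wild type and 9.23 ± 0.11 for knockout, and among the IPs 9.54 ± 0.97 and 9.79 ± 0.73 (SD, n = 3 each). The signal was not lower in the arrays labelled knockout. Where these probes lie relative to the deletion is not stated in the labels, so the signal checks nothing, and every direction between genotypes rests on the labels.

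The first comparison, wild-type IP against wild-type input, asks how far Fgf21 mRNA was enriched with CNOT6L before background is considered. Fgf21 rose 6.90-fold (95% interval 4.09 to 11.7), which is 2.79 ± 0.35 (SE) in log2 units (adjusted p = 0.00880, limma). The differences within the 3 preparations were 2.52, 3.04 and 2.80, so it was higher in 3 of 3. Over all genes tested the median difference was -0.11, and limma called 10 genes higher (0.105%) and 0 lower (0%). Unadjusted p-values under 0.05 were found for 435 higher (4.58%) and 573 lower genes (6.03%). With the preparation as a block, 321 genes were called higher (3.38%) and 612 lower (6.44%), Fgf21 among the former (adjusted p = 0.00259). Blocking all 12 arrays by number gave 3.81% higher and 7.86% lower. Without a block, Fgf21 had rank 4 by p and rank 7 by size of increase. Its groups did not overlap, as in 7.72% of genes with the IP higher. An exact two-sided permutation test of the 3 against 3 arrays gave p = 0.1, the smallest that it can give. The call was lost when any 1 of the wild-type inputs was left out, with adjusted p of 0.0580, 0.0578 and 0.0508 without numbers 1, 2 and 3 and log2 differences of 2.90, 2.84 and 2.62, and also when only these 6 arrays were fitted (adjusted p = 0.101).

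In the IPs the probe sets for the 3′ end of Gapdh read 0.84 to 2.34 log2 units above those for its 5′ end in wild type and 0.88 to 1.93 in knockout, against -0.01 to 0.40 and 0.03 to 0.27 in the inputs. The same difference for actin was 1.90 to 2.96 in wild-type and 1.90 to 2.35 in knockout IPs, against 0.38 to 1.05 and 0.28 to 0.87 in the inputs. The mean of the poly-A control probe sets was 10.11 to 12.35 in wild-type and 10.23 to 12.61 in knockout IPs, against 4.84 to 8.11 and 4.83 to 8.17 in the inputs. All 3 measures moved with the fraction in both genotypes. They also differed by replicate number. In every group the poly-A controls were lowest at number 1, and the Gapdh and actin differences were highest at number 3. The part of these measures in the Fgf21 results was not tested. Between the precipitates of the 2 genotypes the ranges overlapped.

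In the negative control, knockout IP against knockout input, the Fgf21 difference was -0.34 ± 0.35 (SE; adjusted p = 0.767 by limma). The 95% interval ran from a 0.467-fold to a 1.33-fold ratio of IP to input, which excludes an enrichment of the size measured in wild type. The 3 preparations gave -1.12, 0.20 and -0.10, so that the IP was clearly below its input in number 1 only. Here limma called 0 genes in either direction (0%), while unadjusted p-values under 0.05 were found for 282 higher (2.97%) and 760 lower genes (8%). With the preparation as a block 8 genes were lower (0.0842%), and with all 12 arrays blocked by number 1.85% were higher and 9.45% lower. The median of all genes was -0.21. The exact two-sided permutation p for Fgf21 was 0.5. Without knockout IP number 1 the difference was -0.09.

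The inputs compare the steady-state level of Fgf21 mRNA in cells labelled knockout and wild type. The knockout minus wild-type difference was 0.06 ± 0.35 (SE), a ratio of 1.04-fold with a 95% interval from 0.616 to 1.76 (adjusted p = 1.0 by limma, exact two-sided permutation p = 0.7). With the replicate number as a block on these 6 arrays the interval narrowed to -0.19 to 0.30 on the log2 scale (adjusted p = 0.915). A difference in Fgf21 level of the size of the wild-type enrichment lies outside both intervals. In bulk RNA such as this, fewer cells that express a gene and less RNA per cell cannot be told apart. Between the inputs limma called 0 genes in either direction (0%), also with the block, and unadjusted p-values under 0.05 were found for 3 higher (0.0316%) and 2 lower genes (0.0211%).

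The precipitates of the 2 genotypes were then set side by side. Fgf21 was 8.41-fold higher in wild-type IP than in knockout IP (95% interval 4.98 to 14.2), or 3.07 ± 0.35 (SE) in log2 units (adjusted p = 0.00605, limma). It was higher at all 3 numbers, by 3.53, 2.81 and 2.87. The groups did not overlap, which was the case with wild type higher in 5.44% of genes. By limma 24 genes were higher (0.253%) and 0 lower (0%), and at an unadjusted p under 0.05 these were 454 (4.78%) and 58 (0.611%). Fgf21 had the second smallest p. With the number as a block on these 6 arrays 7 genes were higher (0.0737%), and with the number over all 12 arrays 2.33% were higher and 0.126% lower. The exact two-sided permutation p was 0.1, the smallest possible. In a fit of these 6 arrays alone the adjusted p was 0.276, it was 0.0489 when the number was added as a block, and 0.102 with that block after quantile normalization.

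Specific enrichment subtracts the knockout IP minus input difference from the wild-type one. For Fgf21 it was 3.13 ± 0.49 (SE) on the log2 scale, or 8.75-fold with a 95% interval from 4.17 to 18.4. The adjusted p of 0.116 by limma missed the threshold of 0.05, although Fgf21 had the third smallest p of the 9496 genes. The same-number values were 3.64, 2.84 and 2.91, all positive, and an exact two-sided permutation test of the 3 wild-type against the 3 knockout differences gave p = 0.1, again its smallest value. Non-overlap of these differences with wild type higher was seen in 7.94% of genes. Most of the value came from the wild-type rise of 2.79, and the remaining 0.34 from the knockout side.

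How the replicate number entered the fit decided this call. With each preparation as a block the adjusted p was 0.0571. Blocking all 12 arrays by number gave 0.0159, and blocking by number separately in inputs and IPs gave 0.00907, so Fgf21 passed in both of the last fits. The estimate was 3.13 in all 4 fits, and the SE fell from 0.49 to 0.39, 0.36 and 0.25. Limma called 1 gene higher (0.0105%) without a block, 2 with the preparation as a block (0.0211%) and 27 with the number shared by all arrays (0.284%), and 0 lower in each of these fits. At an unadjusted p under 0.05, without a block, 174 were higher (1.83%) and 14 lower (0.147%).

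**Figure D2:**
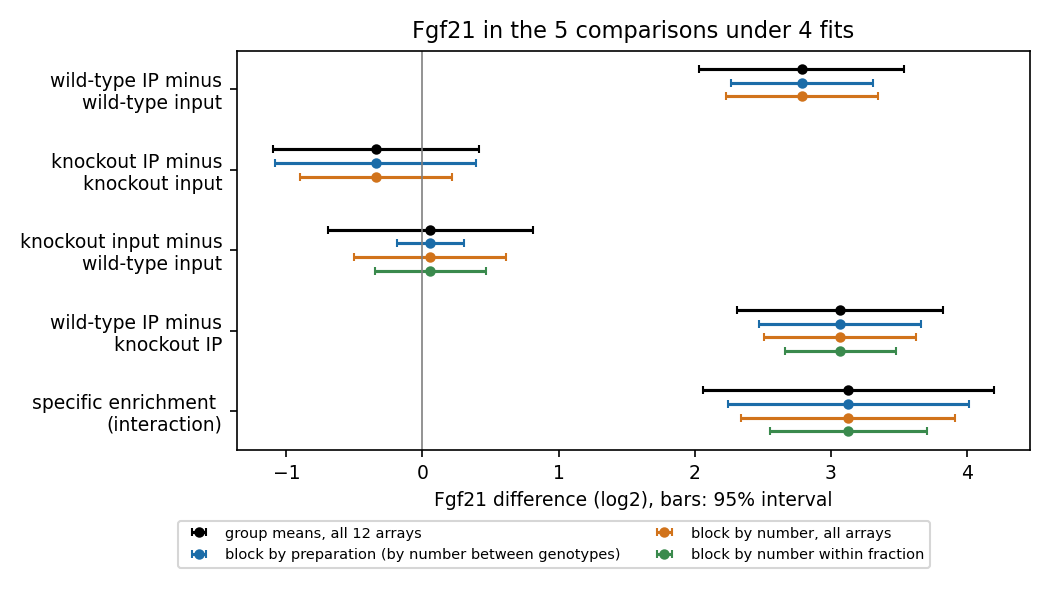
Fgf21 log2 difference (horizontal axis, points) with its 95% interval (bars) in the 5 comparisons, for the fit of group means and for the 3 kinds of replicate block where they apply. The intervals of the 3 comparisons that contain wild-type IP lie above 2, and those of the other comparisons include 0.

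By Pearson correlation over the 12 arrays, the genes whose pattern was most like that of Fgf21 were Cnot8 (r = 0.968), which encodes another deadenylase subunit of CCR4-NOT, Tec (0.963), Dusp1 (0.960), a phosphatase of MAP kinases, and Rpia (0.954), an isomerase of the pentose phosphate pathway. They were followed by Tbp (0.952), the TATA-binding protein, Dhx35 (0.946), a helicase of the DEAH family, and Cdk7 (0.940), a kinase of the transcription factor TFIIH. The last 3 were G0s2 (0.936), an inhibitor of the lipase ATGL, Fosl2 (0.936), a transcription factor of the FOS family, and Sav1 (0.936), a scaffold of the Hippo pathway. These correlations describe 12 arrays that share 3 replicate numbers and 4 groups, and 21 of 9495 genes reached 0.9. The order depended on the measure. By Spearman correlation, which ranged from 0.559 for G0s2 to 0.951 for Tbp among these genes, only 1 of the 10 stayed among the 10 nearest.

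Because these genes were chosen on the same 12 arrays for following Fgf21, their levels are a description and were given no test. All 10 had their highest mean in wild-type IP, and all 3 wild-type IPs were above the other 9 arrays in each of them, by 0.68 (Tbp) to 2.61 (Tec) log2 units. The wild-type IP minus input difference was 3.15 for Tec, 2.95 for G0s2, 2.05 for Rpia, 2.00 for Cnot8, 1.81 for Cdk7 and 1.74 for Dusp1. It was 1.43 for Tbp, 1.10 for Fosl2, 1.01 for Sav1 and 0.89 for Dhx35. In knockout IP against input the 10 ranged from -0.49 (Cdk7) to 0.16 (G0s2). Between the inputs they ranged from -0.21 (Sav1 and Fosl2) to 0.24 (Cdk7). Cnot6l itself correlated weakly with Fgf21 (r = 0.221).

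**Figure D3:**
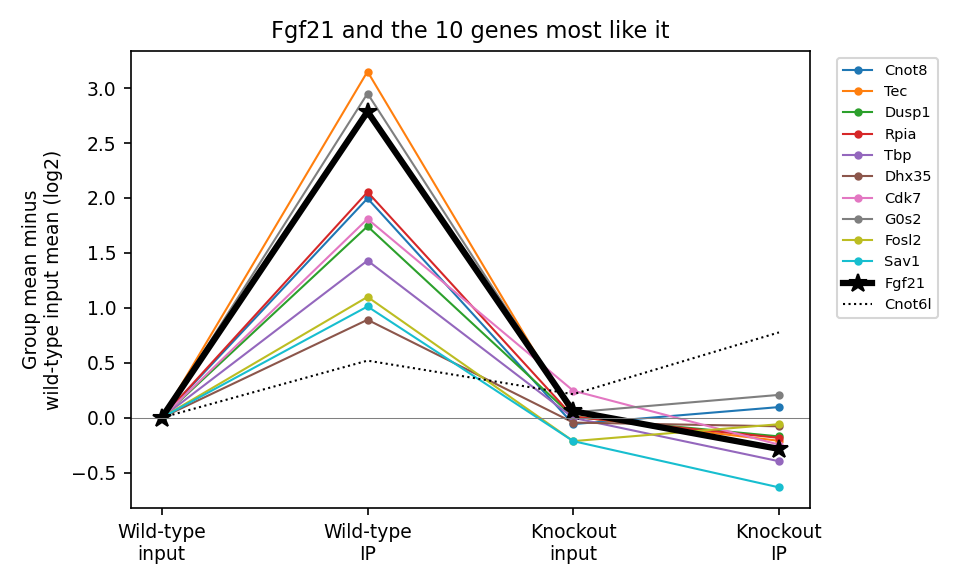
Group means of Fgf21, of the 10 genes with the highest Pearson correlation with it over the 12 arrays, and of Cnot6l, each minus the gene's own mean in wild-type input (log2, vertical axis). Fgf21 and the 10 genes are highest in wild-type IP, where Fgf21 is 2.79 above its input and the others are 0.89 to 3.15 above theirs, whereas Cnot6l is highest in knockout IP.

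**Figure D4:**
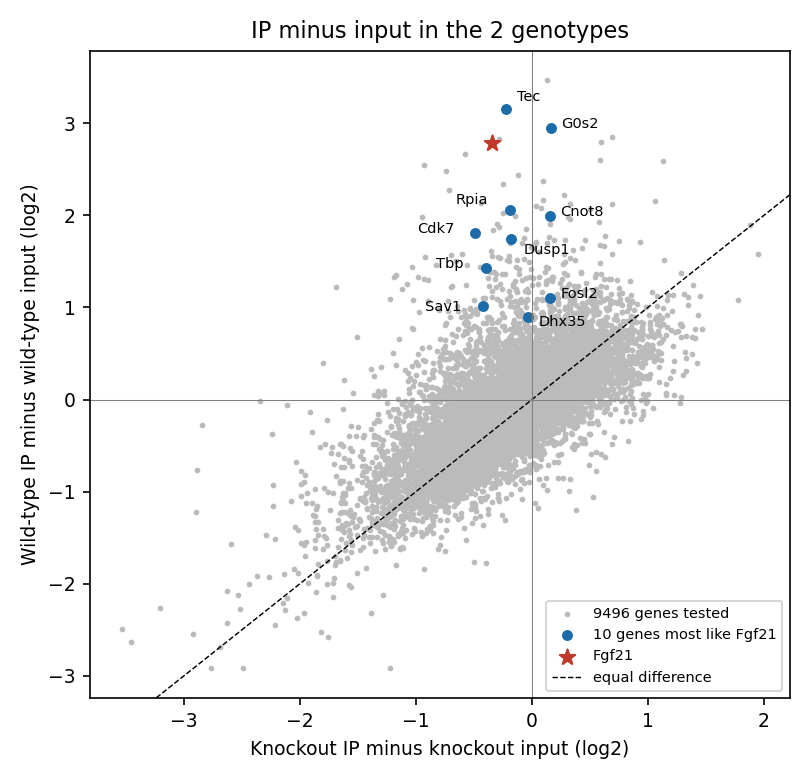
IP minus input difference of each of the 9496 genes tested (grey points) in knockout (horizontal axis, log2) and wild type (vertical axis, log2), with the line of equal differences. Fgf21 (star) lies at -0.34 and 2.79, and the 10 genes most like it also lie above the line.

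Of the other 21 fibroblast growth factor genes 20 were on the array and 3 passed the filter on dim genes, Fgf1, a paracrine growth factor, Fgf13, an intracellular member of the family, and Fgf22. The other endocrine members, Fgf15, the gut hormone that restrains bile acid synthesis, and Fgf23, the bone hormone of phosphate balance, were below the filter, with means over the 12 arrays of 4.90 and 3.91 against a cutoff of 5.57. In wild-type IP against input the tested members had 0.33 (Fgf22), 0.10 (Fgf13) and -0.29 (Fgf1). Their specific enrichment was -0.53, -0.17 and 0.12. None was called in any comparison, and at an unadjusted p under 0.05 the only one was 1 higher in knockout IP against input (2.97% of all genes).

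Fgfr1, the main receptor partner of FGF21, read 5.85 ± 0.87 in wild-type input and 5.50 ± 0.86 in wild-type IP (SD, n = 3 each), with a specific enrichment of -0.27 ± 0.78 (SE). Klb, the co-receptor that gives FGF21 its target cells, read 5.52 ± 0.36 in wild-type input, 5.81 ± 0.34 in wild-type IP, 5.61 ± 0.09 in knockout input and 5.90 ± 0.49 in knockout IP (SD, n = 3 each), with a specific enrichment of 0.01 ± 0.46 (SE). Both were close to the filter cutoff of 5.57, where changes are hard to measure. Fgfr4, the receptor of hepatocytes for FGF15, had -0.83 in wild-type and -0.90 in knockout IP against input, values of the same sign. Of the 6 receptor and co-receptor genes tested, limma called 0 in any of the 5 comparisons, also with the preparation as a block. When all 12 arrays were blocked by number, Fgfr2, another receptor, was called higher in wild-type IP against input (0.68, adjusted p = 0.0363, limma) and Fgfr4 lower in knockout IP against input (adjusted p = 0.0450, limma), where 3.81% and 9.45% of all genes were called in those directions. Their median specific enrichment was 0.10, against 0.05 over all genes, and 0 had an unadjusted p under 0.05 there.

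Among the adaptors and feedback genes of FGF signalling, 1 of 14 tested was called higher in wild-type IP against input (0.105% of all genes). This was Frs3, an adaptor that docks on activated FGF receptors, which rose from 6.24 ± 0.18 to 7.91 ± 0.24 (SD, n = 3 each), a log2 difference of 1.67 ± 0.27 (SE; adjusted p = 0.0474 by limma). In knockout it had 0.62 (6.14 to 6.76), and its specific enrichment of 1.06 did not pass (adjusted p = 1.0). Dusp6, a phosphatase induced by FGF signalling that inactivates ERK, had the largest specific enrichment of the list at 2.27 ± 0.998 (SE), with a wide spread and without passing. Its mean was 10.55 in wild-type input and 12.12 in IP, and 10.22 and 9.53 in knockout. In the fit blocked by preparation Dusp6 (adjusted p = 0.0258) was also called higher and Shc1, another adaptor, lower (-2.08, adjusted p = 0.0126) in wild-type IP against input by limma. In those directions 3.38% and 6.44% of all genes were called. With all 12 arrays blocked by number, Dusp6 (adjusted p = 0.00348, limma) and Frs3 (0.0204) were called higher in wild-type than in knockout IP (2.33% of all genes), and 0 of the 14 lower. That fit also called 1 of the 14 lower in knockout IP against input (9.45% of all genes) and 0 higher. Egr1 (0.88), an immediate early transcription factor, and Spry1 (0.82), a feedback inhibitor of receptor tyrosine kinases, did not pass in specific enrichment either. In specific enrichment 0 of the 14 were called, 2 were higher at an unadjusted p under 0.05 (1.83% of all genes), and the median was 0.26. Frs2, the paralogue of Frs3, was not analysed here.

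Among 26 regulators of Fgf21 transcription limma called 0 in any of the 5 comparisons. Unadjusted p-values under 0.05 in wild-type IP against input were found for 1 higher (4.58% of all genes) and 1 lower gene (6.03%). In wild-type against knockout IP 4 of the 26 were higher at that threshold (4.78% of all genes) and 0 lower (0.611%). When the preparation was a block, Srebf1, a lipogenic transcription factor, was called higher in wild-type IP against input (adjusted p = 0.0396, limma). Rora was called lower there (-1.16, adjusted p = 0.0484, limma). In those directions 3.38% and 6.44% of all genes were called. With all 12 arrays blocked by number, Rora was not called in wild-type IP against input (adjusted p = 0.0813, limma). In that fit 2 of the 26 were higher (3.81% of all genes) and 0 lower (7.86%). Rora was lower in knockout IP against input too (-1.85). There it was 1 of 2 members called lower with all 12 arrays blocked by number (adjusted p = 0.0207, limma), as 9.45% of all genes were. Atf4 read 11.74 ± 0.28 in wild-type and 11.75 ± 0.37 in knockout input (SD, n = 3 each), and Ppara 7.87 ± 0.67 and 7.75 ± 0.78. Atf4 had 0.42 in wild-type and -0.50 in knockout IP against input, a specific enrichment of 0.92 ± 0.45 (SE) that did not pass, and Ppara had -0.30 ± 0.77. Eif2ak3, the kinase PERK of the endoplasmic reticulum that raises ATF4 output, had 1.05 in specific enrichment, Cebpb, a partner of ATF4 at response elements, 0.89, and Rora, a nuclear receptor of the clock, 0.69, none passing. The median of the list was 0.20, with 19 of 26 positive, where 55.8% of all genes were positive. With all 12 arrays blocked by number, Eif2ak3 was the 1 of the 26 called higher in wild-type than in knockout IP (adjusted p = 0.0268, limma). In that comparison 0 were lower, and 2.33% of all genes were higher.

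Of 33 ATF4 target genes tested other than Fgf21, limma called 0 in any of the 5 comparisons. Their median was -0.12 in wild-type IP against input and 0.17 in specific enrichment. In specific enrichment 20 were positive (55.8% of all genes) and 2 higher at an unadjusted p under 0.05 (1.83%). In wild-type against knockout IP 5 of the 33 were higher at that threshold (4.78% of all genes) and 0 lower (0.611%). Ddit4, a stress-induced inhibitor of mTORC1, had a specific enrichment of 2.92 ± 0.85 (SE), close to Fgf21 in size but built differently. It read 10.33 in wild-type input and 11.56 in IP, and 10.11 and 8.41 in knockout (neither difference called without a block). Ppp1r15a, which encodes GADD34, a cofactor that restores translation after stress, had 1.60, Sesn2, an amino acid sensor, 1.17 and Vegfa, an angiogenic growth factor, 1.12, with none passing. When blocked by preparation, Ddit4, Ppp1r15a, Vldlr and Chac1 were called higher in wild-type IP against input and Atf5, a relative of ATF4, lower (-2.37), with adjusted p of 0.0190 to 0.0498 by limma. In those directions 3.38% and 6.44% of all genes were called. Blocking all 12 arrays by number called 2 of 33 higher (3.81% of all genes) and 2 lower (7.86%) in wild-type IP against input. Ddit4 was not among these (adjusted p = 0.0869, limma). In that fit 3 of 33 were lower in knockout IP against input (9.45% of all genes), Ddit4 among them (adjusted p = 0.0333, limma), and 0 higher. That fit called Ddit4 (adjusted p = 0.00420, limma), Ppp1r15a (0.0160) and Vegfa (0.0198) higher in wild-type than in knockout IP (2.33% of all genes), and 0 lower. Between the inputs the ATF4 targets had a median of 0.11 with 24 of 33 positive, against 0.01 and 53.9% over all genes, and 0 had an unadjusted p under 0.05. The C/EBP-ATF letters shown in capitals in the Fgf21 sequence were found in 7 of the 25 ATF4 target genes that could be matched by symbol to a RefSeq promoter, among them Chac1, Vldlr and Atf3, in 3 of 18 hepatokine genes (Angptl8, Inhbe and Serpinf1) and in 0 of 26 PPAR-alpha targets, against 0.895% of all promoters.

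The PPAR-alpha targets other than Fgf21 had 31 tested members, of which limma called 0 in any of the 5 comparisons. Their median was -0.20 in wild-type IP against input and 0.04 in specific enrichment. In specific enrichment 17 were positive (55.8% of all genes) and 1 was higher at an unadjusted p under 0.05 (1.83%). Pdk4, a kinase that restrains glucose oxidation, read 7.54 ± 0.11 in wild-type IP and 5.88 to 6.22 on average in the other groups, a specific enrichment of 1.91 ± 0.62 (SE) that did not pass. Cyp4a10, a fatty acid hydroxylase, had -1.59 ± 2.19 (SE), with within-group SDs of up to 2.68. Pdk4, in the fit blocked by preparation, was called higher in wild-type IP against input (1.56, adjusted p = 0.0130, limma), and Cyp4a10, Hadha and Acaa2 lower, the last 2 being enzymes of mitochondrial beta-oxidation. In those directions 3.38% and 6.44% of all genes were called. Ehhadh, an enzyme of peroxisomal beta-oxidation, had 1.18, which came from a knockout IP of 6.68 against an input of 8.26 rather than from wild type (7.87 to 7.47). Cyp4a14 had -0.51.

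Of 21 tested genes of other proteins secreted by the liver (hepatokines), 3 had positive differences in wild-type IP against input (14.3%, against 41.6% of all genes), and the median was -0.50. Without a block limma called 0 there and in the other 4 comparisons. Unadjusted p-values under 0.05 in wild-type IP against input were found for 0 higher (4.58% of all genes) and 2 lower genes (6.03%). Blocking by preparation, Fetub, Serpinf1, Retsat and Proc were called lower in wild-type IP (-1.28 to -1.06, adjusted p of 0.0190 to 0.0473 by limma), where 6.44% of all genes were. In specific enrichment the median was -0.02. Inhbe, a subunit gene of activin E, had 2.33 ± 0.59 (SE) without passing, with 7.47 and 7.46 in wild-type input and IP and 7.67 and 5.33 in knockout. Its lowest group was thus the knockout IP. Hamp, which encodes the iron hormone hepcidin, had 1.32, Igfbp1, an insulin-regulated binding protein of IGF, 0.77 and Angptl6 -0.69, none passing. With all arrays blocked by number, 5 of the 21 were called lower in wild-type IP against input (7.86% of all genes). That fit called 5 lower in knockout IP against input (9.45% of all genes), Inhbe among them (adjusted p = 0.0102, limma). Inhbe was also the 1 called higher in wild-type than in knockout IP (adjusted p = 0.0219, limma), as 2.33% of all genes were. In each of these comparisons 0 were called in the other direction.

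Among 11 tested CCR4-NOT subunit genes 1 was called, Cnot8, which is also the gene most like Fgf21, so that its pattern is no independent result. It was called higher in wild-type IP against input (2.00 ± 0.30 SE, adjusted p = 0.0352 by limma), as 0.105% of all genes were. In wild-type against knockout IP it was also called higher (1.90 ± 0.30 SE, adjusted p = 0.0332 by limma), as 0.253% of all genes were. Its specific enrichment of 1.84 did not pass (adjusted p = 0.712). In knockout it read 8.20 in the input and 8.35 in the IP. The second of these calls was lost with the number as a block on the 6 IP arrays (adjusted p = 0.0739) and kept with the number as a block over all 12 (adjusted p = 0.00354). With the preparation as a block Cnot3 was also called higher (1.07) and Cnot7 lower (-1.36) in wild-type IP against input, where 3.38% and 6.44% of all genes were called in those directions. With all 12 arrays blocked by number, 1 of the 11 was called lower in knockout IP against input (9.45% of all genes) and 0 higher. Tnks1bp1 (0.76), Cnot10 (-0.50) and Cnot2 (0.42) did not pass in specific enrichment, and the median specific enrichment of the list was 0.04. Among 9 other deadenylases and poly(A)-binding genes limma called 0 in any of the 5 comparisons. Noct, the circadian gene of nocturnin, had 0.79, Parn -0.33, Toe1 0.22 and Pan3 -0.15 in specific enrichment, with a median of 0.00. In wild-type IP against input 2 of the 9, Toe1 and Pde12, were lower at an unadjusted p under 0.05 (6.03% of all genes) and were called with the preparation as a block (6.44% of all genes). Knockout IP against input also had 2 of the 9 lower at an unadjusted p under 0.05 (8% of all genes). Toe1 had -0.91 in wild type and -1.12 in knockout. With all 12 arrays blocked by number it was called lower in knockout too (adjusted p = 0.02055, limma), as 9.45% of all genes were.

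Of 8 tested genes that respond to FGF21 or to FGF signalling in liver, limma called 0 in any of the 5 comparisons. Fos, an immediate early transcription factor, had the largest specific enrichment (2.60 ± 1.20 SE) and the largest difference in wild-type IP against input (2.35), with group SDs of 0.93 to 1.45. Blocked by preparation, Fos was called higher in wild-type IP against input (adjusted p = 0.00875, limma), as 3.38% of all genes were. With all 12 arrays blocked by number, Fos was also called higher in wild-type than in knockout IP (adjusted p = 0.0162, limma), as 2.33% of all genes were. In that comparison 0 of the 8 were lower. Lpin1, a phosphatidate phosphatase, had a specific enrichment of 0.57. The median specific enrichment was 0.44, and 0 had an unadjusted p under 0.05. Between the inputs the median was 0.12.

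**Figure D5:**
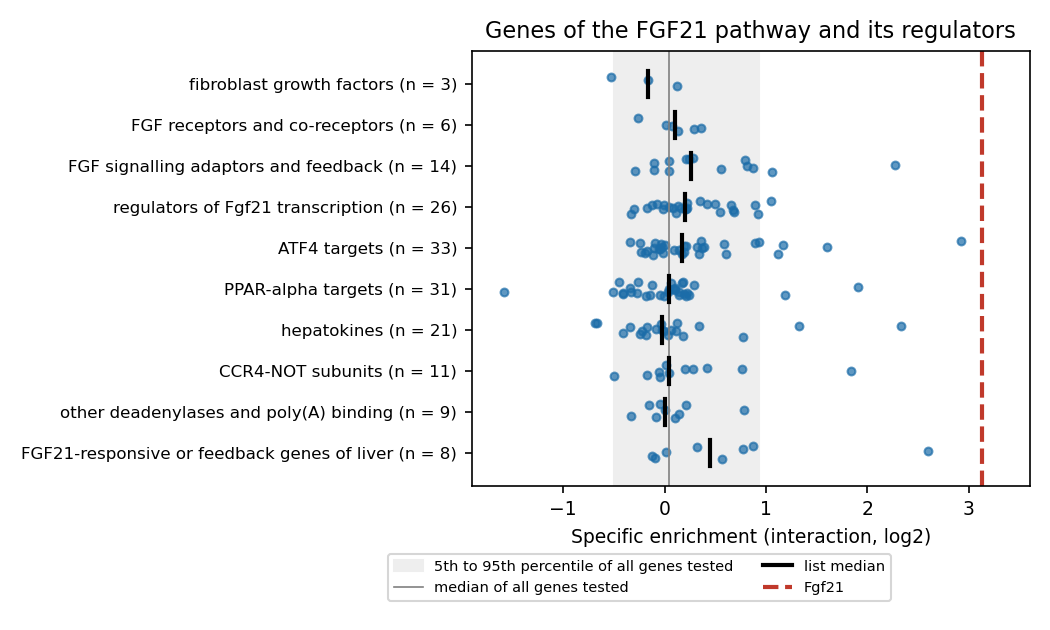
Specific enrichment (log2, horizontal axis) of each tested gene of the 10 lists, with the list median (black bar), the 5th to 95th percentile of all genes tested (grey band, -0.50 to 0.93) and the value of Fgf21 (dashed line, 3.13). Every gene of these lists lies below Fgf21, and Ddit4 comes nearest at 2.92.

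The sample identity was checked with cell type markers. The 9 hepatocyte markers on the array were all above the filter, and their summed linear signal was 88160 to 105800 in wild-type and 86620 to 95960 in knockout inputs, and 64800 to 85410 and 61960 to 77980 in the IPs. Of 10 Kupffer cell and macrophage markers 8 were below the filter, among them Adgre1 and Clec4f, while Cd68 and Csf1r passed it. The summed signal was 3153 to 5157 over the inputs and 1596 to 2374 over the IPs of both genotypes. It came mostly from the 2 markers that passed, so macrophage markers were not all dim. Of 8 endothelial markers 3, of 8 stellate markers 3, of 4 cholangiocyte markers 2, of 5 lymphocyte markers 4 and of 4 neutrophil markers 3 were below the filter. The 1 erythroid marker matched was above it. Without a block limma called 0 markers of any list in any comparison. With the preparation as a block 1 Kupffer cell and 1 cholangiocyte marker were called lower in wild-type IP against input (6.44% of all genes). With all arrays blocked by number these counts were the same (7.86% of all genes). In knockout IP against input that fit called 1 Kupffer cell, 1 hepatocyte and 1 endothelial marker lower (9.45% of all genes). The lowest Kupffer cell marker difference was -1.15 in wild type and -1.02 in knockout. The part of these markers in the results was not tested.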

How the data were processed

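RNA was hybridised to Affymetrix Mouse Genome 430 2.0 arrays, labelled as biotinylated cRNA from 10 micrograms of RNA per the labels' protocols. The values deposited by the authors are log2 signals, as their range shows. They carry a background correction and normalization not given in the sources used here, which can shift every level. Of 16539 probe sets, 64 were controls and 15780 carried 1 gene symbol in the platform annotation (0 carried several), of which 15752 matched the RefSeq table of GRCm38.p6. The other 695 are unnamed here. Symbols and promoters come from RefSeq.

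Genes with a mean over the 12 arrays at or above the 40th percentile (5.57) were tested, 9496 in all. Group means were fitted on all 12 arrays with limma 3.58.1 in R 4.3.3 (empirical Bayes, two-sided). Adjusted p-values are Benjamini-Hochberg over all genes tested, and genes were called under 0.05. SEs are moderated, and intervals are 95%. The fit was tested on simulated data. Figures used Python 3.11.15 and matplotlib 3.10.9. An array has no read depth, and 3 arrays per group limit the precision.

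The members and gene lists were chosen with earlier results of these data known. Genes were named by rule: Fgf21, Cnot6l, the 10 genes with the highest Pearson correlation, up to 4 members per list with the largest absolute specific enrichment, and 7 fixed pathway genes. Some other list members are named where a block added a call, chosen after their values were seen. Not every call of the fits with a block is named. Frs2 and other list genes without a match are not analysed here.

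Arrays of the same number deviated together from their group means (r of 0.453 to 0.936 over 18 pairs, against -0.711 to 0.068 for different numbers). That an IP pairs with an input is stated in the series text. That numbers pair across genotypes is read from the values. Alternatives changed the normalization, centring, filter, moderation, arrays fitted and replicate block, or left out each array.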

Additional observations from a re-analysis of the deposited data

Results flagged for a closer look

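Among the genes named here, Tec was the gene whose IP minus input difference differed between the genotypes by the limma interaction test (3.37, adjusted p = 0.0219). It was also higher in the IP in 3 of 3 wild-type preparations and lower in 3 of 3 knockout preparations. The same opposite movement was seen for Dusp1 (1.92), Cdk7 (2.30) and Sav1 (1.43) among the genes most like Fgf21, for Dusp6 (2.27), and for Eif2ak3 (1.05), Atf4 (0.92), Cebpb (0.89), Ddit4 (2.92), Sesn2 (1.17), Vegfa (1.12), Hamp (1.32) and Igfbp1 (0.77), where the values are specific enrichments. Cyp4a10 moved the other way, lower in all wild-type and higher in all knockout IPs (-1.59). The interaction test did not pass for any of these genes other than Tec. These genes were named for their likeness to Fgf21 or their size of specific enrichment, which favours such signs. Of all 9496 genes tested, 158 (1.66%) moved up in every wild-type and down in every knockout preparation, and 17 (0.179%) the opposite way. Fgf21 is not among them, because its knockout difference was positive in preparation 2.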

How the results depend on the processing

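The Fgf21 differences that contain wild-type IP kept their sign in every alternative run. Wild-type IP against input was 2.60 to 2.94 with 1 array left out. It was no longer called without any 1 of the wild-type inputs (adjusted p of 0.0508 to 0.0580, limma) or with only the arrays compared (2.79). Wild-type against knockout IP was 2.82 to 3.38 with 1 array left out and was not called with only the arrays compared (3.07) or with the block and quantile normalization together (3.06). Specific enrichment was 2.87 to 3.44 with 1 array left out (adjusted p of 0.0617 to 0.549) and was called with the number as a block over all arrays or within each fraction (3.13 in both). Over all alternatives its adjusted p ran from 0.00907 to 0.549. The knockout minus wild-type input difference, never called, ran from -0.11 to 0.23 and turned negative without wild-type input number 3 (-0.11) or knockout input number 1 (-0.08).

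Counts of called genes moved more. For wild-type IP against input, 10 became 16 with quantile normalization, 1 with only the arrays compared, 933 with the replicate block by preparation, 1108 with the number over all arrays, 637 with block and quantile normalization, and 2 to 14 with 1 array left out. For knockout IP against input, 0 became 52 without the filter, 8 with the replicate block by preparation, 1073 with the number over all arrays, 1 with block and quantile normalization, and 0 to 2 with 1 array left out. For wild-type against knockout IP, 24 became 0 with only the arrays compared, 7 with the block by number on them, 233 with the number over all arrays, 380 with the number within each fraction, 0 with block and quantile normalization, and 4 to 16 with 1 array left out. For specific enrichment, 1 became 2 with the block by preparation, 27 and 34 with the blocks by number, and 0 to 4 with 1 array left out. Of the 10 genes most like Fgf21, 1 remained by Spearman correlation, 2 with number means removed, and 5 to 9 with 1 array left out. The replicate block changed no Fgf21 call other than specific enrichment and, with quantile normalization, wild-type against knockout IP. In knockout IP against input, quantile normalization moved the median of all genes from -0.21 to -0.04 and the Fgf21 difference from -0.34 to -0.16. The cause of these changes was not tested.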
